A study of Mus musculus with 8 samples.

Results

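The synaptic vesicle and release machinery was described here as 50 genes, taken by symbol from a written list, of the 35968 genes to which the measured transcripts were assigned. The RNA came from TN SST neurons, the somatostatin cells of the tuberal nucleus of the mouse hypothalamus, in 4 females and 4 males, with 1 library per mouse and sex as the only contrast. All 8 mice carried the genotype Ssttm2.1(cre)Zjh/J / +, in which Cre recombinase is made from the somatostatin locus, and were kept on a C57BL/6J background. All had received AAV2-flex-tdTomato, a virus whose red reporter is switched on only by Cre, as adults in the tuberal nucleus. The cells were dissociated with papain and sorted as live, nucleated, red cells, so the labelled population was whatever expressed Cre and took up the virus around the injection. Females had ovaries and males had testes. The estrous stage of the females is not given in the sources used here.

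A neurotransmitter is stored in small vesicles that dock at the active zone, a protein scaffold at the presynaptic membrane. Fusion is driven by the SNARE proteins syntaxin, SNAP-25 and synaptobrevin, which zip the vesicle membrane onto the cell membrane, and it is timed by calcium binding to synaptotagmin. After fusion, NSF and the soluble NSF attachment proteins take the SNARE complex apart, and dynamin, amphiphysin and synaptojanin help retrieve the membrane. Peptides such as somatostatin are packed into dense-core vesicles, which use many of the same proteins together with priming factors such as CAPS.

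Promoters are shown for the genes on which the sex comparison below turns and that have an entry in the promoter table: *Syt1*, *Syn1*, *Bsn* and *Ppfia2*, which are among the 5 with the smallest p, and *Sv2c*, the single gene higher in males at an unadjusted p under 0.05. Each line gives the bases before the annotated start, 5′ to 3′ on the gene's own strand, from RefSeq on GRCm38, with motif matches in capitals. The motifs were searched in the 250 bases before the RefSeq start, and bases that GENCODE places inside the gene are not shown, which shortens *Syn1* to 164, *Syt1* to 243 and *Bsn* to 249 bases. A GC box of *Syt1* runs past the end of the stretch shown and is not marked there.
Syt1: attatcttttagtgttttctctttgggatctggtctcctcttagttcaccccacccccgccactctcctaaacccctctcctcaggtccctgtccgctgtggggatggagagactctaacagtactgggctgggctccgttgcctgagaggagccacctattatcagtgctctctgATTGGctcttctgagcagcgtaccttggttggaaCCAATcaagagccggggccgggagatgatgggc
Syn1: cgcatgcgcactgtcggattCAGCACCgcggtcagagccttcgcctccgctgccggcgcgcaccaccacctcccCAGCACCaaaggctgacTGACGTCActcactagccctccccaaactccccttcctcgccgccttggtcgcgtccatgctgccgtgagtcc
Bsn: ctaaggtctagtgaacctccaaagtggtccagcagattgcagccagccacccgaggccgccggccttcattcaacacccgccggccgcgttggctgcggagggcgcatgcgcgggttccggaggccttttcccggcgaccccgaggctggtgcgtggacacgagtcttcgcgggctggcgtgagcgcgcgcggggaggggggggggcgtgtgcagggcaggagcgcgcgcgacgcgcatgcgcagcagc
Ppfia2: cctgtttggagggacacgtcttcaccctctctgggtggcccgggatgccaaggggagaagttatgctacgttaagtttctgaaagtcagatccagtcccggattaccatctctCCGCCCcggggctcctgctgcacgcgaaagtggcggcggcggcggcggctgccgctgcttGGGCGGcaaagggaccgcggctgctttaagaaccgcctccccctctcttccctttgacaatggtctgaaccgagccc
Sv2c: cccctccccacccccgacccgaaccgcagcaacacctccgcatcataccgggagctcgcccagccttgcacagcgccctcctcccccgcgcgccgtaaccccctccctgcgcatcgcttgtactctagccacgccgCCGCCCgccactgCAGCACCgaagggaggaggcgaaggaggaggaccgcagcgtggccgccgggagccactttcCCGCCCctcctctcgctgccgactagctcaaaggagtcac
The stretches shown lie at chr10:109010983-109011225 on the minus strand for *Syt1*, chrX:20921005-20921168 on the minus strand for *Syn1*, chr9:108190385-108190633 on the minus strand for *Bsn*, chr10:106470060-106470309 on the plus strand for *Ppfia2* and chr13:96132578-96132827 on the minus strand for *Sv2c*. The motifs searched, on both strands, were the cyclic AMP response element TGACGTCA, the GC box GGGCGG, the TATA box TATAAA, the CCAAT box CCAAT, and CAGCACC, the left arm of RE1, the element bound by the neuronal repressor REST. No 2 of these letter strings contain one another.

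Of the 50 release genes, 40 had an entry in the promoter table. *Rims2*, *Snap25*, *Doc2a*, *Vamp2*, *Syn3*, *Syt4*, *Syt7*, *Syt5*, *Syngr3* and *Doc2b* had none. The GC box was in 29 of the 40 windows (72.5%), against 32.7% of the 32851 promoter windows of the same length in the table. A TATA box was in 1 of the 40 (2.5%, in *Rab3b*) against 12.4% of all windows, and the CCAAT box was in 14 (35.0%) against 33.8%. The complete cyclic AMP response element was in 1, *Syn1* (2.5% against 1.55% of all windows). The RE1 left arm was in 5 (12.5% against 5.73%), in *Syn1*, *Sv2c*, *Napa*, *Rph3a* and *Ppfia3*. GC boxes were thus more frequent, and TATAAA rarer, than over all windows. The window of a release gene was the one nearest the start of its leading coding transcript, while every window was taken for the comparison. The part of this choice in the difference was not tested. The *Bsn* window held none of the motifs searched. *Syn1* and *Sv2c*, whose sex differences below have opposite signs, both held the RE1 left arm. A match is a run of letters and was not tested as a site.

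In units of 1000000, between 7.83 and 17.6 estimated counts were assigned per mouse, and 1 gene, *Lars2*, took 9.34 to 34.4% of them. The Y-linked gene *Ddx3y* followed the sex labels, at 0 to 0.197 CPM in females and 102 to 117 CPM in males (counts per 1000000, scaled between libraries by edgeR's TMM factors). *Sst* itself was at 292 to 526 CPM in females and 301 to 369 CPM in males, and the 10 neuron identity genes, among them *Rbfox3*, *Tubb3* and *Map2*, were all present and summed to 2504 to 2741 CPM in females and 2100.1 to 2681 CPM in males. Glial markers were present too, as given with the sex comparison below. Values of the 4 females and of the 4 males are given in the order of mice 1 to 4. CPM is used here to compare 1 gene between mice, and TPM (transcripts per 1000000, divided by transcript length) to compare genes with each other.

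Many genes of the release machinery were abundant in these neurons. The 50 genes together took 0.894 to 1.57% of the counts of a mouse, with *Lars2* included in those counts. Averaged over the 8 mice, 21 of the 50 were at 100 TPM or more and 7 were under 20 TPM. *Napb*, the lowest of the 21, ranked 1591st of all 35968 genes by mean TPM. *Vamp1*, the lowest of those at 20 TPM or more, ranked 7020th. The highest was *Rab3a*, the small GTPase that recruits effectors to the vesicle surface, at 990.2 ± 159.5 TPM (SD, n = 8), which placed it 51st among all genes. *Snap25*, the SNARE of the cell membrane, followed at 666 ± 183 TPM (SD, n = 8), rank 98, and *Syp*, synaptophysin, the classical vesicle membrane marker, at 651 ± 119 TPM (SD, n = 8), rank 104. Next came *Dnm1*, the neuronal dynamin that pinches off endocytic vesicles (528 ± 128 TPM, SD, n = 8), *Vamp2*, synaptobrevin (464 ± 72.4 TPM, SD, n = 8), *Nsf*, the ATPase that disassembles SNARE complexes (366 ± 109.7 TPM, SD, n = 8), and *Synj1*, the phosphatase synaptojanin (326 ± 44.9 TPM, SD, n = 8). *Syt1*, the fast calcium sensor (284 ± 75.5 TPM, SD, n = 8), *Sncb*, beta-synuclein (283 ± 56.2 TPM, SD, n = 8), and *Syt11*, a synaptotagmin that does not bind calcium (266 ± 29.7 TPM, SD, n = 8), completed the 10 highest. From *Snap25* down to *Syt11*, the means of neighbours in this order lay within the larger of their SDs. Genes further apart in the order did separate: the lowest *Snap25* value, 466 TPM, was above the highest *Syt11* value, 319 TPM. Within a mouse some neighbours also kept their order, as *Syp* was above *Dnm1* in every mouse. The order of these genes was not tested.

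**Figure D1:**
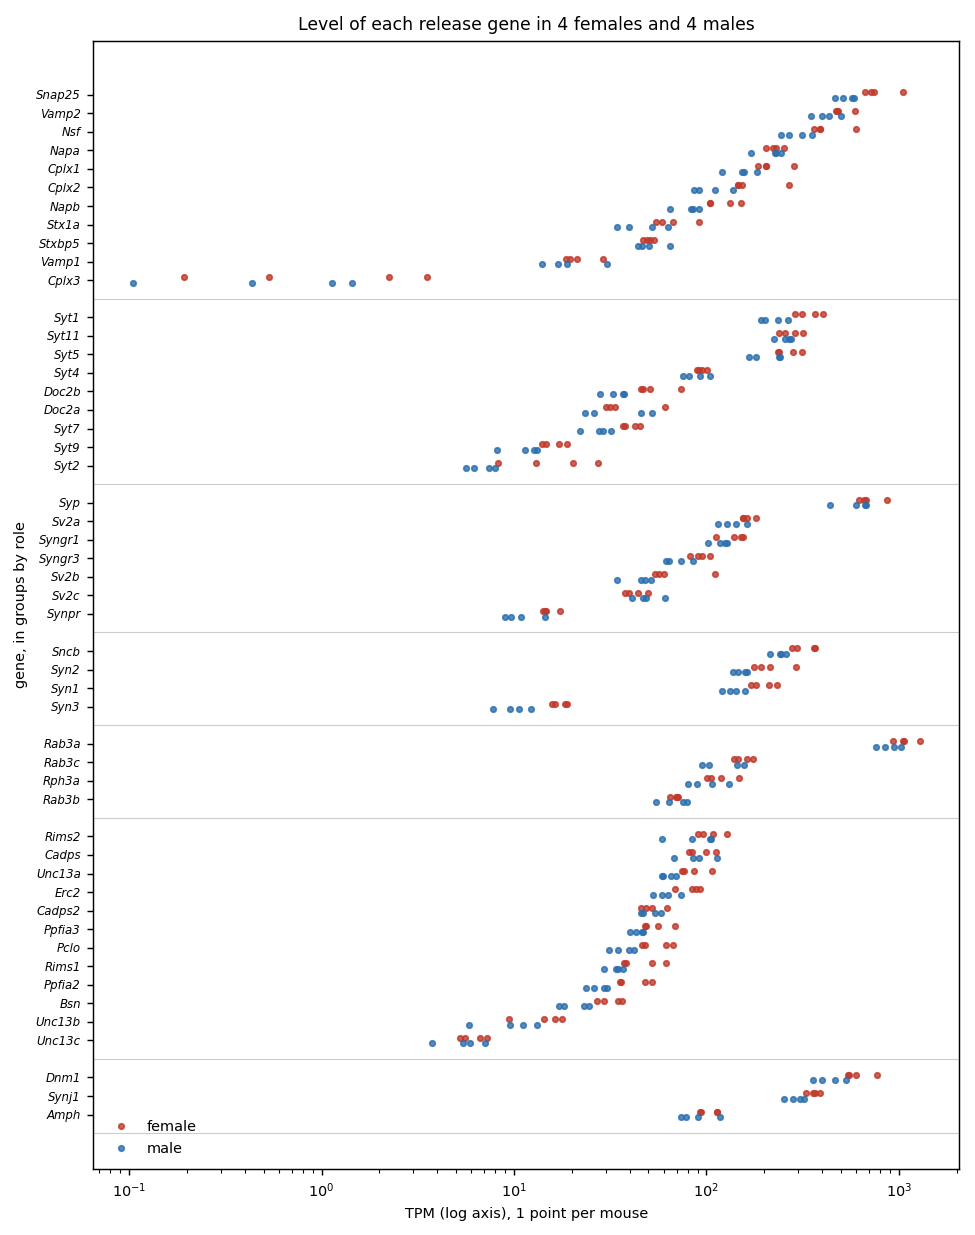
Level of each of the 50 release genes in TPM (x axis, log scale), with 1 point per mouse, red for the 4 females and blue for the 4 males, and genes in groups by role on the y axis. *Rab3a* is highest at 990.2 TPM on average, and *Cplx3* lowest at 1.1998 TPM.

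At the other end, *Cplx3*, a complexin of the retina and other specialised synapses, was barely detected, at 7, 2, 7 and 16 counts for the 4 females and 9, 2, 8 and 6 for the 4 males. It was the single release gene left out by the filter on low counts, so 49 of 50 were tested. *Unc13c* (5.86 ± 1.15 TPM, SD, n = 8), *Syt2* (11.98 ± 7.81 TPM, SD, n = 8), *Syn3* (13.7 ± 4.21 TPM, SD, n = 8), *Unc13b* (12.2 ± 3.97 TPM, SD, n = 8), *Synpr* (13.1 ± 2.89 TPM, SD, n = 8) and *Syt9* (13.8 ± 3.29 TPM, SD, n = 8) were the other genes under 20 TPM. *Unc13c*, *Syt2*, *Syn3* and *Synpr* were each the lowest listed paralog of their family.

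The comparison of the sexes asked whether the release machinery differed between female and male TN SST neurons. The genes leaned towards females: the log2 fold change, females minus males, was above 0 in 45 of the 49 tested (49.4% of all 15194 genes tested), with a median of 0.28 against -0.0043 over all genes and a range of -0.35 in *Sv2c* to 0.70 in *Syn3*. No release gene passed the adjusted threshold of 0.05 in edgeR's quasi-likelihood test, which 0.158% of all genes passed, and the smallest adjusted p was 0.0798. At an unadjusted p under 0.05, 26 of the 49 were higher in females, against 9.86% of all genes, and 1 was higher in males, against 10.7%. Every female lay above every male in log2 CPM for 21 genes, against 6.48% of all genes, and the reverse held for 0, against 3.94%. DESeq2, the test named in the study's methods, placed 18 release genes past an adjusted p of 0.05 as higher in females, against 3.86% of all genes, and 0 as higher in males, against 3.07%. All 18, and all 21 with separated sexes, were among the 26.

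The absence of calls by edgeR depended on which mice were kept. Without female 1, 7 release genes passed the adjusted threshold (*Bsn*, *Doc2b*, *Napb*, *Ppfia2*, *Snap25*, *Syn1* and *Syt1*) and 2.67% of all genes did. Without male 1, 10 passed (*Bsn*, *Dnm1*, *Napb*, *Nsf*, *Pclo*, *Ppfia2*, *Syn1*, *Syn3*, *Synj1* and *Syt1*) and 2.65% of all genes did. Every one of these calls was higher in females. Leaving out any other single mouse gave 0. With library totals alone in place of TMM factors, the count of release genes with separated sexes fell from 21 to 5. Those at an unadjusted p under 0.05 fell from 26 to 19 in females and from 1 to 0 in males, while the median log2 fold change stayed at 0.28. Over all 15194 genes, those at an unadjusted p under 0.05 in either direction also fell, from 3121 to 2410. With library totals, counts of all genes by direction or with separated sexes are not given here, so the 5 and the 19 have no matching share.

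**Figure D2:**
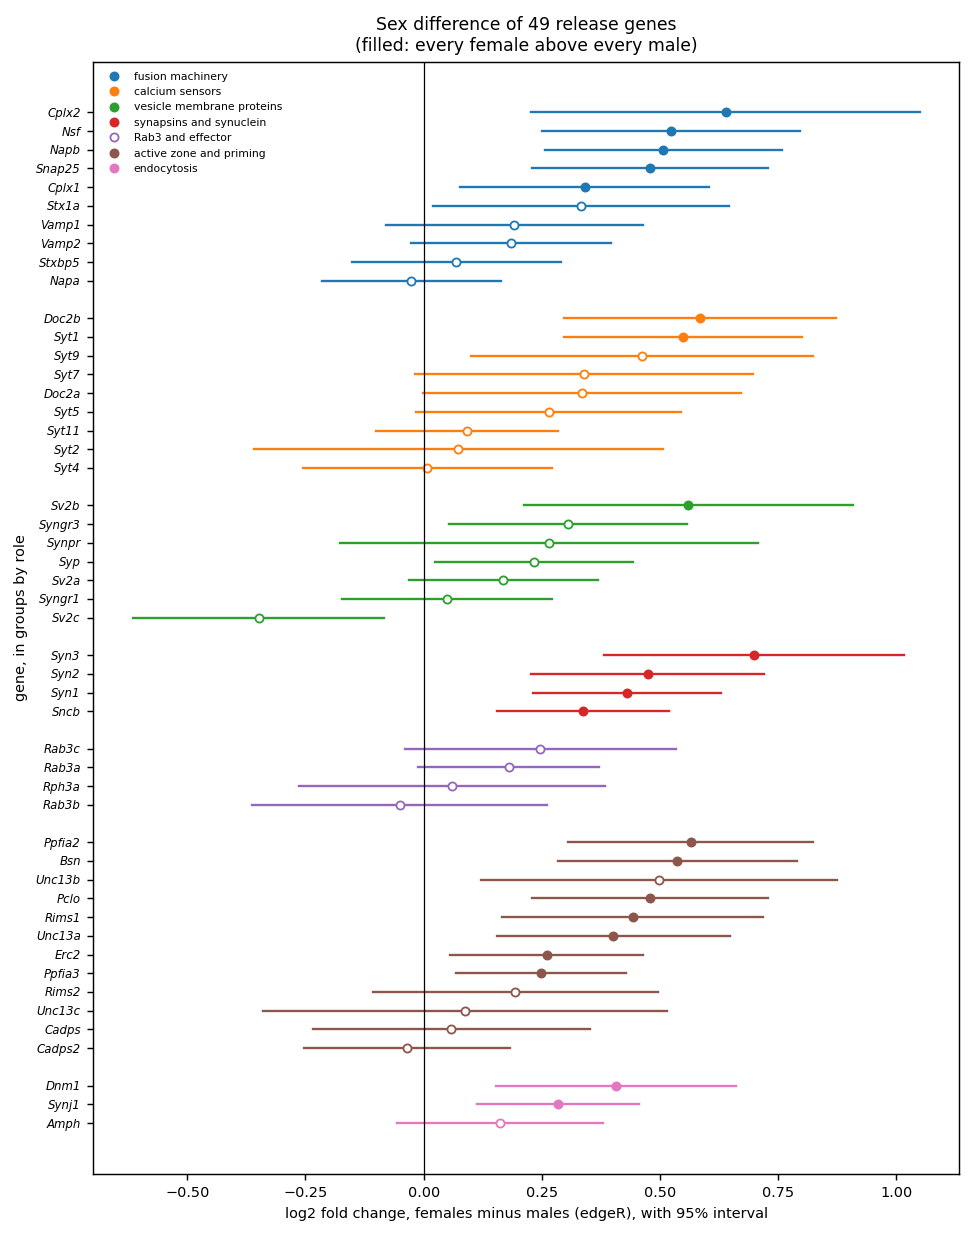
Log2 fold change between females and males for the 49 release genes tested (x axis, edgeR, with 95% intervals as lines), in groups by role on the y axis and coloured by role. Filled points mark the 21 genes in which every female lay above every male, and *Sv2c* at -0.35 is the one gene whose interval lies wholly below 0.

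The lean was not the same in every mouse. For each gene, log2 CPM was set against its mean over the 8 mice, and the median of these deviations over the release genes was 0.054, 0.15, 0.25 and 0.13 for the 4 females and 0.026, -0.32, -0.16 and -0.15 for the 4 males. Male 1 was the male nearest to the females, and female 1 the female nearest to the males. Summed over the 50 genes, the release machinery in CPM stood at 11647, 12414, 13552 and 12224 for the 4 females and 11484, 8858, 10238 and 9609 for the 4 males. The lowest female sum was above the highest male sum by a small margin, that between female 1 and male 1.

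Markers of other cells moved with this difference. The 6 microglial markers (*C1qa*, *C1qb*, *Cx3cr1*, *P2ry12*, *Tmem119* and *Csf1r*) all had a log2 fold change below 0, with a median of -1.32, and summed to 188 to 1103 CPM in females and 438 to 2102 CPM in males. The 5 oligodendrocyte markers, among them *Mbp* and *Mog*, also lay below 0 (median -0.78) and summed to 196 to 709 CPM in females and 296 to 730.4 CPM in males, and the 6 astrocyte markers did so too (median -0.79), with sums of 88.1 to 352 CPM in females and 271 to 483 CPM in males. At an unadjusted p under 0.05, 4 microglial, 2 oligodendrocyte and 2 astrocyte markers were higher in males, against 10.7% of all genes. None of these 17 genes passed the adjusted threshold, and none was at 0 in any mouse. The microglial sum in CPM was 1103, 377, 188 and 561 for the 4 females and 438, 2102, 1225 and 2087 for the 4 males. In each sex the mouse with the lowest microglial sum, female 3 and male 1, had the highest sum of release genes. Neuron identity genes were above 0 in 10 of 10 (49.4% of all genes) with a median of 0.13, below that of the release genes. Of these 10, 2 were higher in females at an unadjusted p under 0.05, against 9.86% of all genes. The 3 GABAergic genes lay above 0 (median 0.12, summed to 695 to 1042 CPM in females and 582 to 983 CPM in males). The 6 markers of the neighbouring ventromedial nucleus had a median of 0.65, with 5 above 0 and 1 below (-0.44 to 1.92). They summed to 327 to 492 CPM in females and 175 to 276 CPM in males. Their median deviation per mouse overlapped between the sexes, at -0.025 to 0.85 in females and -0.97 to 0.43 in males. The 6 of the arcuate nucleus had a median of -0.77, with 1 above 0 and 5 below (-1.15 to 0.63). They summed to 153 to 376 CPM in females and 363 to 625 CPM in males. Medians were -1.06 for 3 oligodendrocyte precursor markers and -0.44 for 5 endothelial markers (1 above 0). They were -0.12 for 4 tested of 5 tanycyte and ependymal markers (2 above 0) and -0.12 for 2 tested of 3 glutamatergic genes (1 above 0). The part of these cell types in the result was not tested, and in sorted bulk RNA fewer cells of a type and less RNA per cell cannot be told apart.

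**Figure D3:**
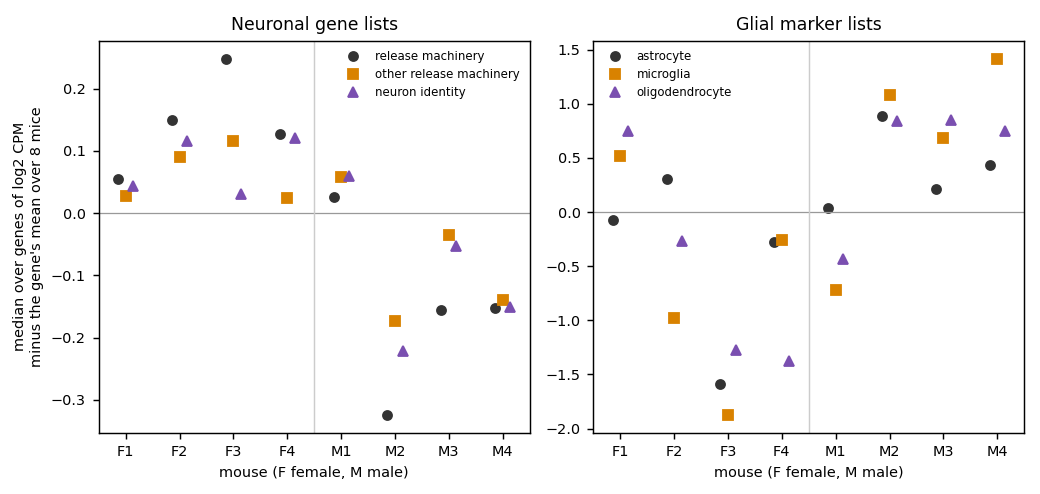
Median over the genes of a list of log2 CPM minus the gene's mean over the 8 mice (y axis, 1 point per list) in each of 4 females (F1 to F4) and 4 males (M1 to M4). The left panel holds the release machinery, the list of other release genes and neuron identity genes, and the right panel astrocyte, microglia and oligodendrocyte markers, on a wider scale. Female 3 is highest for release genes at 0.25 and lowest for microglia at -1.87.

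Among the genes of membrane fusion, 6 of 10 tested were higher in females at an unadjusted p under 0.05 (9.86% of all genes). Every female lay above every male for 5 (6.48% of all genes), and the median log2 fold change was 0.34. *Snap25* (ENSMUSG00000027273.13, chromosome 2, 136713453 to 136782428, plus strand) measured 540.1, 599, 751 and 565 CPM for the 4 females and 473, 398, 458 and 434 CPM for the 4 males. All females lay above all males, and the log2 fold change was 0.48 (SE 0.111, adjusted p = 0.0913), with an interval of 0.23 to 0.73. *Nsf* measured 669, 681, 843 and 633 CPM for the 4 females and 582, 428, 501 and 455 CPM for the 4 males, with a log2 fold change of 0.52 (SE 0.121, adjusted p = 0.0909). Here too the lowest female was above the highest male. *Napb*, the beta form of the attachment protein that brings NSF to the SNARE complex and a form largely restricted to brain, measured 262, 275, 329 and 317 CPM for the 4 females and 230.0, 172, 208 and 223 CPM for the 4 males, again without overlap (log2 fold change 0.51, SE 0.112, adjusted p = 0.0823). Its partner *Napa*, the form found in most tissues, measured 96.5, 108, 102 and 99.5 CPM for the 4 females and 106, 116, 93.1 and 98.5 CPM for the 4 males, and the sexes overlapped fully (log2 fold change -0.026, SE 0.0845, adjusted p = 0.8897).

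The complexins clamp and then assist the SNARE complex. *Cplx2* measured 413, 435, 658 and 413 CPM for the 4 females and 393, 274, 311 and 255 CPM for the 4 males, and female 3 stood far above the other females. Its log2 fold change of 0.64 (SE 0.183, adjusted p = 0.129) was the largest of the fusion genes, and without female 3 it was 0.45. *Cplx1* measured 76.9, 73.8, 93.2 and 71.3 CPM for the 4 females and 68.9, 63.97, 63.99 and 52.02 CPM for the 4 males, with separated sexes and a log2 fold change of 0.34 (SE 0.117, adjusted p = 0.174). For *Vamp2*, 555, 604, 602 and 532 CPM for the 4 females and 581, 438, 512 and 485 CPM for the 4 males, and the low *Vamp1*, 28.97, 31.9, 28.1 and 30.8 CPM for the 4 females and 27.9, 23.4, 22.97 and 30.6 CPM for the 4 males, the sexes overlapped. Their log2 fold changes were 0.18 (SE 0.0945, adjusted p = 0.297) and 0.19 (SE 0.121, adjusted p = 0.393). *Stx1a*, syntaxin, ranged over 37.4 to 49.8 CPM in females and 30.6 to 42.1 CPM in males (log2 fold change 0.33, SE 0.139, adjusted p = 0.226), and *Stxbp5*, tomosyn, which binds syntaxin and holds it back from fusion, over 107 to 119.9 CPM in females and 87.7 to 118 CPM in males (log2 fold change 0.069, SE 0.0985, adjusted p = 0.723).

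The 9 synaptotagmins and Doc2 proteins were grouped as calcium sensors, although not every one of them binds calcium, as *Syt11* does not. All 9 had a log2 fold change above 0, with a median of 0.34. At an unadjusted p under 0.05, 3 were higher in females (9.86% of all genes): *Syt1*, *Doc2b* and *Syt9*. *Syt1* (ENSMUSG00000035864.14, chromosome 10, 108497650 to 109010982, minus strand) measured 571, 626, 691 and 658 CPM for the 4 females and 517, 369.5, 455 and 399 CPM for the 4 males. Every female exceeded every male, the log2 fold change was 0.55 (SE 0.112, adjusted p = 0.0798), and DESeq2 gave an adjusted p of 4.32e-04. *Doc2b*, a high-affinity sensor linked to spontaneous release, measured 113, 121, 159 and 120.2 CPM for the 4 females and 92.9, 73.96, 79.7 and 95.8 CPM for the 4 males, with separated sexes and a log2 fold change of 0.59 (SE 0.128, adjusted p = 0.0822). *Doc2a*, the related sensor, measured 30.1, 28.6, 31.97 and 26.99 CPM for the 4 females and 23.1, 21.1, 19.04 and 30.2 CPM for the 4 males (log2 fold change 0.34, SE 0.1501, adjusted p = 0.246), and its sexes overlapped. An overlap of exons with *Ino80e* on the opposite strand covers 39.4% of the exon bases of *Doc2a*, and whether strand was used in counting is not given in the sources used here.

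*Syt11* measured 679, 656, 644 and 573 CPM for the 4 females and 661, 539, 614 and 580.5 CPM for the 4 males, the sexes overlapped, and the log2 fold change was 0.091 (SE 0.0857, adjusted p = 0.573), with an interval of -0.10 to 0.28. *Syt4*, which resides on dense-core and other secretory vesicles, ranged over 175 to 234 CPM in females and 178 to 229.9 CPM in males and had the log2 fold change nearest 0 of this group, 0.0080 (SE 0.117, adjusted p = 0.979). *Syt5* (log2 fold change 0.26, SE 0.125, adjusted p = 0.262), *Syt7*, the slow sensor of asynchronous release (log2 fold change 0.34, SE 0.1595, adjusted p = 0.262), and *Syt9*, a fast sensor related to *Syt1* (log2 fold change 0.46, SE 0.161, adjusted p = 0.176), had larger values than both. *Syt2*, the fast sensor of the hindbrain and spinal cord, was low at 10.4 to 17.1 CPM in females and 9.92 to 14.5 CPM in males and its interval of -0.36 to 0.51 was the widest of the group.

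Among the vesicle membrane proteins, 3 of 7 were higher in females at an unadjusted p under 0.05 (*Sv2b*, *Syngr3* and *Syp*) and 1, *Sv2c*, was higher in males. Over all genes the shares were 9.86% and 10.7%. The SV2 proteins are transporter-like glycoproteins that bind synaptotagmin. *Sv2c* (ENSMUSG00000051111.16, chromosome 13, 95954594 to 96132577, minus strand) measured 157, 161, 176 and 138 CPM for the 4 females and 243, 170.1, 202 and 188 CPM for the 4 males. The sexes overlapped, the log2 fold change was -0.35 (SE 0.119, adjusted p = 0.169), and the unadjusted p was 0.0155. With library totals alone its log2 fold change was -0.35 as well, but its unadjusted p was no longer under 0.05. *Sv2b* measured 118, 121, 193 and 124 CPM for the 4 females and 101, 91.9, 89.5 and 95.1 CPM for the 4 males, with separated sexes (log2 fold change 0.56, SE 0.155, adjusted p = 0.11996) and with female 3 well above the other females. *Sv2a*, the form found in nearly all neurons, measured 373, 400.0, 380.4 and 380.3 CPM for the 4 females and 397, 300.4, 342 and 324 CPM for the 4 males (log2 fold change 0.17, SE 0.08896, adjusted p = 0.311). The 3 paralogs of SV2 thus had log2 fold changes on both sides of 0, and their intervals were -0.031 to 0.37 for *Sv2a*, 0.21 to 0.91 for *Sv2b* and -0.62 to -0.083 for *Sv2c*.

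*Syp* measured 724, 804, 811 and 712 CPM for the 4 females and 728, 560.2, 671 and 636 CPM for the 4 males (log2 fold change 0.23, SE 0.0933, adjusted p = 0.214), and male 1 reached into the range of the females. Its relative *Synpr*, synaptoporin, measured 20.1, 20.01, 18.01 and 14.04 CPM for the 4 females and 20.03, 13.8, 14.6 and 11.3 CPM for the 4 males (log2 fold change 0.27, SE 0.197, adjusted p = 0.466). Synaptogyrins are vesicle proteins with 4 membrane spans in the family of synaptophysin. *Syngr3* measured 94.9, 106, 96.02 and 83.04 CPM for the 4 females and 91.2, 71.7, 76.3 and 68.1 CPM for the 4 males (log2 fold change 0.31, SE 0.112, adjusted p = 0.188) and *Syngr1* 214, 249, 211 and 202 CPM for the 4 females and 244, 187, 212 and 204 CPM for the 4 males (log2 fold change 0.049, SE 0.09895, adjusted p = 0.811). Both overlapped between the sexes, and *Syngr1* changed direction in 3 of its 17 alternative settings.

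The synapsins and beta-synuclein formed the group in which every gene had separated sexes. Synapsins tether vesicles to each other and to actin in the reserve pool, and beta-synuclein is a soluble presynaptic protein. All 4 were higher in females at an unadjusted p under 0.05, all 4 had separated sexes, and all 4 were past the threshold in DESeq2, with a median log2 fold change of 0.45. Over all genes, the shares in the female direction were 9.86%, 6.48% and 3.86%. *Syn1* (ENSMUSG00000037217.15, chromosome X, 20860511 to 20921004, minus strand) measured 309, 343, 366 and 366 CPM for the 4 females and 289, 233, 254 and 250.3 CPM for the 4 males, with a log2 fold change of 0.43 (SE 0.0885, adjusted p = 0.0798). *Syn2* measured 324, 318, 427 and 339 CPM for the 4 females and 280.0, 236, 264 and 234 CPM for the 4 males (log2 fold change 0.47, SE 0.1098, adjusted p = 0.0909). *Syn3* (ENSMUSG00000059602.14, chromosome 10, 86055125 to 86498896, minus strand) measured 25.98, 26.1, 23.7 and 23.8 CPM for the 4 females and 18.6, 12.2, 15.4 and 15.1 CPM for the 4 males. At 13.7 TPM it was far below *Syn1* (169 TPM) and *Syn2* (185 TPM) per length, and its log2 fold change of 0.70 (SE 0.142, adjusted p = 0.0798) was the largest of all release genes. *Sncb* measured 141, 148, 162 and 163 CPM for the 4 females and 127, 109, 124 and 128 CPM for the 4 males (log2 fold change 0.34, SE 0.0811, adjusted p = 0.0964). *Syn3* shares 14.1% of its exon bases with *Timp3* on the opposite strand.

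The genes of Rab3 proteins and rabphilin included none at an unadjusted p under 0.05 and none with separated sexes, and the median log2 fold change of the 4 was 0.12. Over all genes, 9.86% were higher in females and 10.7% in males at that p. Rab3 on the vesicle binds RIM at the active zone and rabphilin in the cytosol. *Rab3a* measured 386, 435, 431 and 384 CPM for the 4 females and 391, 316, 374 and 364 CPM for the 4 males (log2 fold change 0.18, SE 0.0852, adjusted p = 0.264), *Rab3c* 498, 559, 516 and 615 CPM for the 4 females and 556, 374, 496 and 418 CPM for the 4 males (log2 fold change 0.25, SE 0.128, adjusted p = 0.302) and *Rab3b* 42.3, 49.8, 33.5 and 41.8 CPM for the 4 females and 47.96, 38.4, 47.7 and 38.8 CPM for the 4 males (log2 fold change -0.051, SE 0.139, adjusted p = 0.866). Their intervals were -0.011 to 0.37 for *Rab3a*, -0.040 to 0.53 for *Rab3c* and -0.36 to 0.26 for *Rab3b*. The estimate for *Syn1*, 0.43, lay outside the interval of *Rab3a* and of *Rab3b* but inside that of *Rab3c*. The interval of *Syn1* itself, 0.23 to 0.63, overlapped all of these, and the difference between genes was not tested. *Rph3a*, rabphilin, ranged over 172 to 253 CPM in females and 179 to 253 CPM in males (log2 fold change 0.060, SE 0.144, adjusted p = 0.845).

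Of the 12 genes of the active zone and of priming, 8 were higher in females at an unadjusted p under 0.05, 7 had separated sexes and 5 passed in DESeq2, with a median log2 fold change of 0.33. Over all genes, the shares in the female direction were 9.86%, 6.48% and 3.86%. Bassoon and Piccolo are giant scaffold proteins of the active zone. *Bsn* (ENSMUSG00000032589.14, chromosome 9, 108096022 to 108190384, minus strand) measured 249.8, 291, 297 and 309 CPM for the 4 females and 229.5, 181, 212 and 168 CPM for the 4 males, with a log2 fold change of 0.54 (SE 0.112, adjusted p = 0.0798). *Pclo* measured 479.9, 490.0, 539 and 638 CPM for the 4 females and 430.3, 338, 402 and 371 CPM for the 4 males, with 0.48 (SE 0.111, adjusted p = 0.0912). The females lay above the males for both. Liprin-alpha proteins organise the active zone by binding RIM and the ELKS proteins. *Ppfia2* (ENSMUSG00000053825.15, chromosome 10, 106470339 to 106935952, plus strand) measured 113, 117, 129 and 158 CPM for the 4 females and 95.03, 79.6, 91.7 and 83.1 CPM for the 4 males (log2 fold change 0.57, SE 0.115, adjusted p = 0.0798) and *Ppfia3* 120.1, 131, 149 and 133 CPM for the 4 females and 117, 105, 114 and 113 CPM for the 4 males (log2 fold change 0.25, SE 0.0802, adjusted p = 0.154), both without overlap. Counting protein-coding transcripts alone, the log2 fold change of *Ppfia3* was 0.034, with an adjusted p of 0.932 in edgeR. *Ppfia2* shares 24.5% of its exon bases with *Acss3* and *C230021G24Rik* on the opposite strand.

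RIM proteins link Rab3 to Munc13 and to calcium channels. *Rims1* measured 61.2, 67.97, 85.6 and 74.8 CPM for the 4 females and 55.4, 45.5, 58.4 and 53.9 CPM for the 4 males (log2 fold change 0.44, SE 0.123, adjusted p = 0.122), with separated sexes. *Rims2* measured 138, 142, 146 and 171 CPM for the 4 females and 159, 100.4, 126 and 136 CPM for the 4 males (log2 fold change 0.19, SE 0.134, adjusted p = 0.437), with overlap. Munc13 opens syntaxin and makes the docked vesicle ready for fusion. *Unc13a* measured 158, 166, 215 and 196 CPM for the 4 females and 153, 125, 139.7 and 139 CPM for the 4 males (log2 fold change 0.40, SE 0.1095, adjusted p = 0.118), without overlap, and *Unc13b* 32.9, 43.99, 47.7 and 38.2 CPM for the 4 females and 36.8, 26.9, 28.5 and 22.9 CPM for the 4 males (log2 fold change 0.50, SE 0.168, adjusted p = 0.168), with overlap. *Unc13c* was low, at 21.7 to 34.5 CPM in females and 19.3 to 31.6 CPM in males (log2 fold change 0.087, SE 0.1902, adjusted p = 0.828), and *Erc2*, an ELKS protein, had separated sexes at 118 to 137 CPM in females and 93.8 to 115 CPM in males (log2 fold change 0.26, SE 0.0906, adjusted p = 0.176).

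CAPS proteins prime dense-core vesicles, the carriers of somatostatin and other peptides, and neither of the genes was past an unadjusted p of 0.05. *Cadps* measured 219, 233, 228 and 199.6 CPM for the 4 females and 269.5, 170.2, 209.9 and 194 CPM for the 4 males (log2 fold change 0.059, SE 0.131, adjusted p = 0.831) and *Cadps2* 121, 119, 114 and 143 CPM for the 4 females and 133, 123, 139.8 and 113 CPM for the 4 males (log2 fold change -0.035, SE 0.09696, adjusted p = 0.866). The sexes overlapped for both, with intervals of -0.23 to 0.35 and -0.25 to 0.18. The difference of *Bsn*, 0.54, lay outside both intervals. The interval of *Bsn* itself, 0.29 to 0.79, overlapped that of *Cadps* but not that of *Cadps2*, and the difference between genes was not tested. Among the genes of endocytosis, *Dnm1* measured 863, 889, 1075 and 906 CPM for the 4 females and 832, 600.4, 709.5 and 674 CPM for the 4 males (log2 fold change 0.41, SE 0.113, adjusted p = 0.121) and *Synj1* 460.4, 465, 486 and 461 CPM for the 4 females and 427, 349.7, 395 and 366 CPM for the 4 males (log2 fold change 0.28, SE 0.0763, adjusted p = 0.115), both with separated sexes. *Amph*, amphiphysin, which bends membrane and recruits dynamin, ranged over 168 to 191 CPM in females and 141 to 189.8 CPM in males (log2 fold change 0.16, SE 0.0972, adjusted p = 0.371).

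The paralogs of a family were then compared within each mouse, as the log2 of the TPM ratio of the 2 most abundant members, which does not depend on scaling between libraries. In 12 of 15 families the same paralog led in all 8 mice, and in 13 the mean ratio differed from 0 (2-sided exact sign-flip permutation test over 8 mice, adjusted p under 0.05 over the 15 families, smallest p possible 0.00781). *Syp* exceeded *Synpr* 50.1-fold (log2 ratio 5.65 ± 0.26, SD, n = 8) and *Vamp2* exceeded *Vamp1* 22.4-fold (4.49 ± 0.22). *Rab3a* exceeded *Rab3c* 7.12-fold and *Unc13a* exceeded *Unc13b* 6.34-fold. In CPM, without division by length, *Syp*, *Vamp2* and *Unc13a* again had the higher mean, but *Rab3c* exceeded *Rab3a* on average (log2 ratio of *Rab3a* to *Rab3c* -0.38).

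Ratios were smaller elsewhere. *Sv2a* led *Sv2b* by a log2 ratio of 0.70 to 1.77 over the mice, *Rims2* led *Rims1* by 1.01 to 1.65, *Napa* led *Napb* by 0.62 to 1.93 and *Cadps* led *Cadps2* by 0.38 to 1.09. *Pclo* led *Bsn* (0.64 to 1.01), *Syngr1* led *Syngr3* (0.44 to 1.02), *Ppfia3* led *Ppfia2* (0.11 to 0.76) and *Cplx1* led *Cplx2* (0.093 to 0.78), each in every mouse. *Syn2* led *Syn1* in 7 of 8 mice by a mean of only 0.13 ± 0.12 (exact p = 0.0234). *Doc2b* led *Doc2a* in 5 of 8, so the order was not the same in every mouse (log2 ratio 0.23 ± 0.65, exact p = 0.359).

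Counting protein-coding transcripts alone turned the mean order of 3 families, to *Napb* over *Napa* (log2 ratio of *Napa* to *Napb* -1.03), *Syn1* over *Syn2* (-0.67 for *Syn2* to *Syn1*) and *Syt11* over *Syt1* (-0.61), so these orders rest on transcripts of other than the protein-coding type. In CPM the mean ratio also turned for the complexins (-2.44), *Napa* to *Napb* (-1.27) and *Syt1* to *Syt11* (-0.24).

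The balance of the leading synaptotagmins was compared between the sexes. The log2 ratio of *Syt1* to *Syt11* was 0.0030, 0.40, 0.34 and 0.52 for the 4 females and -0.056, -0.22, -0.19 and -0.34 for the 4 males, above 0 in all 4 females, in female 1 by little, and below 0 in all 4 males. The mean difference of 0.52 gave p = 0.0286 in a 2-sided exact permutation test, the smallest that 4 against 4 mice can give, and 0.214 after adjustment over the 15 families. With protein-coding transcripts alone the ratio was below 0 on average, with a sex difference of 0.55 at the same exact p. The liprins also reached the smallest p: the log2 ratio of *Ppfia3* to *Ppfia2* was 0.42, 0.45, 0.52 and 0.11 for the 4 females and 0.62, 0.76, 0.64 and 0.72 for the 4 males, with a mean difference, females minus males, of -0.31 and no overlap (exact permutation p = 0.0286, adjusted 0.214). No family passed after adjustment. With the first of the 2 blocks of each file alone the liprin ratio gave an exact p of 0.0857, and with CPM in place of TPM 4 families reached the smallest p.

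**Figure D4:**
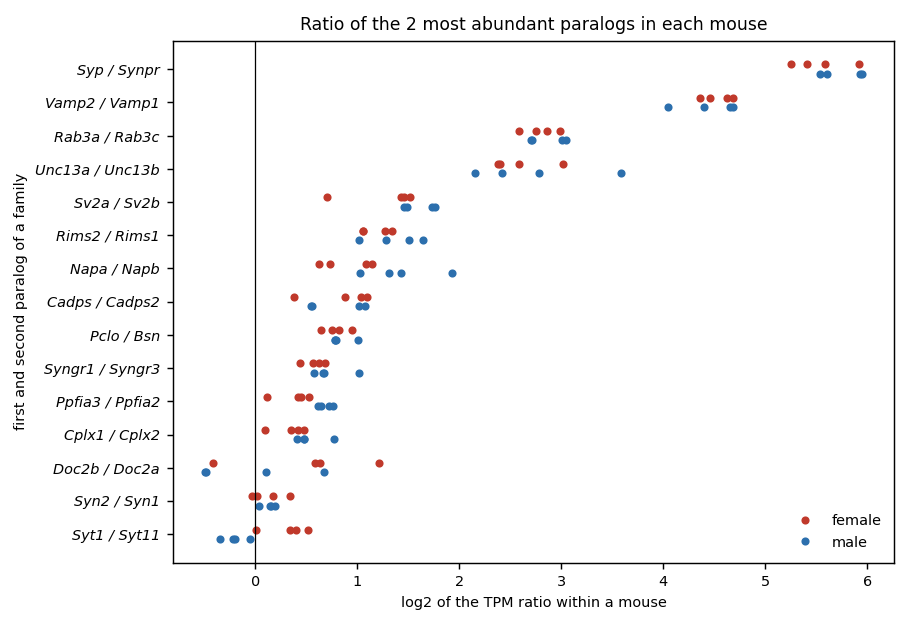
Log2 of the TPM ratio of the 2 most abundant paralogs of 15 families (x axis), with 1 point per mouse, red for the 4 females and blue for the 4 males. The point of 0 marks equal levels, and the females and males fall on opposite sides of it for *Syt1* over *Syt11*.

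Transcripts were described without a test. The 50 genes have 318 annotated transcripts, and in 34 genes over 90% of the gene's estimated counts fell on protein-coding transcripts in every mouse. The lowest mean coding shares of counts were those of *Napa* (65.02%), *Syn2* (65.1%) and *Vamp1* (68.3%). In *Syn2* the leading transcript, Syn2-205, is a retained intron with, of the gene's TPM, 34.2, 29.95, 34.3 and 35.9% for the 4 females and 34.1, 33.6, 30.4 and 29.3% for the 4 males, and in *Napa* the leading one, Napa-203, is annotated for nonsense-mediated decay with 33.05 to 44.2% of TPM. For *Syt1*, 33.0 to 42.1% of TPM fell on the processed transcript Syt1-206. The exons of 17 release genes overlap those of a gene on the opposite strand only and those of 1, *Bsn* with *Gm47303*, a gene on the same strand. The overlap is over 10% of the exon bases in 5: *Doc2a*, *Ppfia2*, *Syp*, *Syt4* and *Syn3*.

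*Snap25* has alternative forms that differ in exon 5. Snap25-202 carries the copy at chromosome 2, 136769743 to 136769860, and Snap25-201 the copy at 136770057 to 136770174, each 118 bases (GRCm38). Of the gene's TPM, Snap25-202 took 53.1, 56.03, 50.9 and 56.5% for the 4 females and 53.4, 54.1, 54.2 and 53.6% for the 4 males, and Snap25-201 42.9 to 48.6%. The sexes overlapped, and the 8 mice spanned a narrow range. The same transcripts also differ in their last exon, 277 bases in Snap25-202 and 1354 in Snap25-201, so the share does not rest on exon 5 alone. *Syn1* was split as evenly, with 46.7 to 57.1% on Syn1-202. *Stx1a* varied most among the genes plotted: Stx1a-201 took 59.9, 33.8, 58.03 and 35.7% for the 4 females and 34.6, 52.6, 37.5 and 97.9% for the 4 males, and Stx1a-206 was listed at 0 in male 4. Some leading transcripts not plotted varied more, among them Ppfia3-207 (2.03 to 67.3% of TPM) and Syt2-203 (0 to 77.2%).

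**Figure D5:**
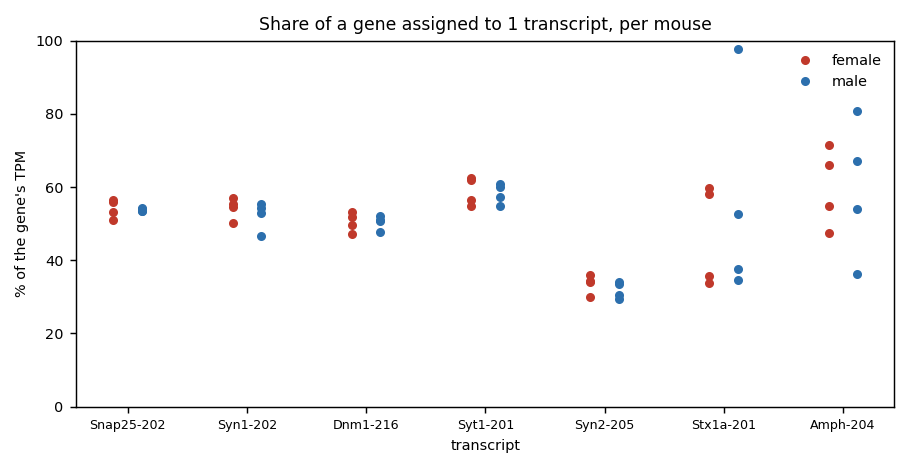
Share of a gene's TPM assigned to 1 of its transcripts (y axis, percent) for 7 transcripts (x axis), with 1 point per mouse, red for the 4 females and blue for the 4 males. Snap25-202 lies between 50.9 and 56.5% in every mouse, while Stx1a-201 runs from 33.8 to 97.9%.

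A further list of 53 genes of vesicle release and recycling, of which 52 were tested (*Cplx4* was too low), had 37 log2 fold changes above 0 and a median of 0.15. Of these, 18 lay higher in females and 4 in males at an unadjusted p under 0.05 (9.86% and 10.7% of all genes), 9 had every female above every male (6.48% of all genes) and 1, *Rab3d*, named after its values were seen, every male above every female (3.94%). *Sh3gl2*, endophilin A1, which acts with dynamin and synaptojanin in vesicle retrieval, was the single gene of the list past the adjusted threshold. It measured 121, 131, 135 and 129 CPM for the 4 females and 94.7, 86.2, 86.1 and 80.6 CPM for the 4 males, with a log2 fold change of 0.57 (SE 0.0739, adjusted p = 0.0213). *Stxbp5l*, a second tomosyn, measured 68.4, 68.3, 78.6 and 83.8 CPM for the 4 females and 54.1, 43.9, 54.5 and 50.6 CPM for the 4 males (log2 fold change 0.56, SE 0.106, adjusted p = 0.06904), and *Snap91*, a neuronal clathrin assembly protein, 186, 195, 221 and 199 CPM for the 4 females and 173, 130.2, 160.2 and 158 CPM for the 4 males (log2 fold change 0.37, SE 0.0975, adjusted p = 0.112). The females exceeded the males in all 3 genes.

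In the male direction, the smallest p belonged to *Picalm*, *Dnm2* and *Stxbp6*. *Picalm*, a clathrin assembly protein of most tissues, measured 199, 156, 136 and 168 CPM for the 4 females and 154, 290.3, 230.3 and 311 CPM for the 4 males (log2 fold change -0.58, SE 0.207, adjusted p = 0.181). *Dnm2*, the dynamin found in all cells, measured 70.05, 56.5, 53.6 and 60.6 CPM for the 4 females and 55.6, 97.1, 87.9 and 97.9 CPM for the 4 males (log2 fold change -0.49, SE 0.175, adjusted p = 0.181), opposite in direction to the neuronal *Dnm1*. *Stxbp6*, amisyn, which binds syntaxin, measured 7.99, 11.5, 8.24 and 7.74 CPM for the 4 females and 16.04, 7.88, 13.9 and 22.9 CPM for the 4 males (log2 fold change -0.78, SE 0.298, adjusted p = 0.201). None of these 3 passed the adjusted threshold.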

How the data were processed

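RNA of sorted tdTomato-labelled TN SST neurons was sequenced as 1 library per mouse, 4 females and 4 males, grouped by the sex in the labels. Each test took the mice as its replicates. Per the submitters' processing notes and the study's methods, the authors assigned single-end reads of a stranded kit to mouse transcripts (mm10) with kallisto 0.46.2. The deposited tables give estimated counts and TPM per transcript, in 2 blocks that the sources used here do not explain. The deposited TPM column was recorded as a score, because it sums to 1000000 in each block and not over the file, although the design assumed TPM.

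Counts of both blocks were summed and rounded, TPM values averaged, and transcripts joined to genes with GENCODE M21 (116728 of 118489 matched, on GRCm38, the build of the coordinates given; the 1761 others held 0.429 to 0.611% of counts). Depth was 7.83 to 17.6 counts per mouse in units of 1000000, so the floor of 3 counts lay at 0.148 to 0.458 CPM. Sexes were compared in edgeR 4.0.16 (R 4.3.3) with TMM factors, the default filter by sex, the quasi-likelihood test and Benjamini-Hochberg adjustment over 15194 genes at 0.05, with sex as the only term. Log2 CPM used a prior count of 2. Intervals are 95% intervals of this fit. The script was tested on simulated data. Paralog ratios were tested by exact permutation tests (scipy 1.17.1), adjusted over 15 families. Alternatives were DESeq2 1.42.0, RLE factors, library totals alone, no filter, a filter of 10 counts in 4 mice, protein-coding transcripts, each block, a replicate block, CPM for TPM, and leaving out each mouse.

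Per-mouse values are given for the 5 genes with the smallest p per direction (only 4 were higher in males), the 10 with the highest TPM, the leading pair of each family and genes below the filter, and for the other release genes past the threshold or with the 3 smallest p per direction. *Lars2*, *Sst* and *Ddx3y* were added for checks. Genes of the lists that are not reported here were left out of the lists' counts and sums. The members, lists and rules were chosen with earlier results of these data known.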

Additional observations from a re-analysis of the deposited data

Results flagged for a closer look

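In 98 groups of 4 mice (49 genes in each sex), a mouse was picked out where its gap to the nearest other mouse, divided by the range of the group, was above Dixon's 95% critical value for 4. Chance picks out about 1 in 20 groups, and 3 were found here. *Cplx2* in females had a ratio of 0.885, with female 3 at 658 CPM against 413 to 435 CPM in the other females. *Sv2b* in females had a ratio of 0.895, again through female 3, at 193 CPM against 118 to 124 CPM. *Stxbp5* in males had a ratio of 0.840, with male 2 at 87.7 CPM against 112 to 118 CPM.

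Female 3 was also the deepest library (17.6 in units of 1000000 counts) and had the lowest microglial sum. The part of either in these values was not tested. Without female 3, the log2 fold change was 0.45 for *Cplx2* and 0.36 for *Sv2b*, still higher in females.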

How the results depend on the processing

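No release gene passed edgeR's adjusted threshold with RLE factors, library totals alone, either filter, protein-coding transcripts or either block, against 18 by DESeq2, and the count was 0 to 10 when single mice were left out, with 7 without female 1 and 10 without male 1. Over all genes the count of 24 became 1052 with DESeq2 and 10 with library totals alone, and 8 to 415 without single mice (415 without female 1, 411 without male 1). With library totals alone, 5 release genes had separated sexes in place of 21, and 0 in place of 1 were higher in males at an unadjusted p under 0.05. Over all genes, 2410 in place of 3121 were at an unadjusted p under 0.05 in either direction. Release genes higher in females at an unadjusted p under 0.05 numbered 19 to 35 over the alternatives. All genes at that p in either direction numbered 1929 to 4071. Counts of all genes by direction or with separated sexes are not given here for the alternatives. In 12 or 13 families 1 paralog was ahead in every mouse. Which paralog was ahead changed, by the mean ratio, in 4 families with CPM (to *Cplx2*, *Napb*, *Syt11* and *Rab3c*) and in 3 with protein-coding transcripts (to *Napb*, *Syn1* and *Syt11*). The log2 fold change of *Ppfia3* was 0.034 with protein-coding transcripts. The families whose ratio reached the smallest p between the sexes numbered 1 with the first block alone and 4 with CPM. Of 38 genes followed singly through 17 alternatives, 33 kept their direction in all. The other 5 had log2 fold changes near 0: *Napa* was 0.00096 with protein-coding transcripts and -0.073 to 0.032 when single mice were left out (0.032 without male 2), and *Syngr1* was -0.010 with the second block alone and -0.022 to 0.13 (-0.022 without female 2, -0.0061 without male 2). With single mice left out, *Rab3b* ran from -0.15 to 0.041 (above 0 without female 3, male 1 at 0.0035 or male 3 at 0.00039), *Cadps2* from -0.12 to 0.012 (above 0 without female 3 at 0.00041 or male 3), and *Cadps* from -0.032 without male 2 to 0.20. The cause of these shifts was not tested. Where 1 mouse was left out, the fit also held fewer mice, and the part of that was not tested either.

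Females and males share replicate numbers in the labels. Deviations of same-numbered mice correlated at -0.396, -0.156, 0.0356 and 0.0719. These values show no clear pairing by number, but low correlations over so few mice cannot exclude it. With a replicate block, 1 gene of all passed the adjusted threshold, no release gene did, and 26 release genes were again higher in females at an unadjusted p under 0.05. Over all 15194 genes, 2387 were at that p in either direction in this fit.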
